A study of Rattus norvegicus with 2 samples.

Results

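Smooth muscle contractile proteins were examined in cultured rat endothelial cells of 2 origins, the endocardium, the lining of the heart chambers, and the aorta. The set held 10 genes chosen by name: the smooth muscle actins Acta2 and Actg2, the myosin subunits Myl9 and Myh11, the actin-binding proteins Tagln and Cnn1, the tropomyosins Tpm1 and Tpm2, the intermediate filament protein Des and the actin-associated LIM protein Pdlim3. All 10 were on the Affymetrix rat U34A array, among 4736 genes that could be named there, and 20 probe sets were annotated to 1 of them alone. A probe set is a group of short oligonucleotides that together read a transcript.

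The 2 groups were endocardial endothelial cells and aortic endothelial cells. Both came from the same 2 rats, were pooled over these rats by origin, were grown through 2 passages under conditions kept as alike as possible, and were treated alike as far as the labels say. The strain, sex and age of the rats are not given in the sources used here. Each group was 1 pooled culture read on 1 array, so the differences below have no replicate check and no p-value, and the origin of the cells cannot be told apart from any other difference between the 2 cultures or arrays. In such a culture, more RNA per cell and more cells of a type that carries the RNA cannot be told apart either.

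Smooth muscle contracts when calcium-activated myosin light chain kinase phosphorylates the regulatory light chain of myosin, encoded in smooth muscle by Myl9, and the myosin heavy chain, encoded by Myh11, then pulls on filaments of Acta2 and Actg2. Tropomyosin lies along these filaments, and calponin (Cnn1) and transgelin (Tagln) bind them. Many of these genes are switched on by serum response factor and its partner myocardin, which act through an A- and T-rich DNA element called the CArG box. Endothelium in the vessel wall makes little Acta2, Myh11, Cnn1 or Des. Endothelial cells can gain Acta2 and Tagln in culture or when they change towards a mesenchymal state, and Acta2 is also made by myofibroblasts.

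Each array gave an intensity for every probe set on a linear scale, scaled here to a shared trimmed mean. The depth of such data is set by signal over background, for which there were 2 marks. The first was a floor of 635.4, the median of all scaled intensities. Values under it were set to it, and a fold against it is a lower bound. The second, called the background ceiling here, was the highest of 38 background control probe sets, 1742. A probe set was measured when it was above the floor on at least 1 array, which held for 4808 of 8740 probe sets and 2935 genes. Across the 3932 probe sets that exceeded the floor on each array, the log2 intensities had a Pearson r of 0.927. This describes probe sets, which are not independent replicates. The ratio of 3′ to 5′ signal, a mark of RNA quality, was 1.09 on the endocardial and 1.11 on the aortic array for beta-actin, and 1.21 on the endocardial and 1.17 on the aortic array for GAPDH.

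Of the 20 probe sets, 16 were measured, and they stood for 9 of the 10 genes. Pdlim3 had the largest ratio of the 9, at least 36.6-fold higher in endocardial cells, and Myl9 was 2.90-fold higher. Myh11 was at least 3.99-fold lower against the floor, from 1 dim probe set. Cnn1 was 1.96-fold and Acta2 1.64-fold higher, while Tagln (1.18-fold), Tpm2 (1.25-fold), Actg2 (1.03-fold) and Tpm1 (log2 ratio -0.06, and from -0.43 to 0.03 under other processing) differed less. Thus 2 of the 9 genes were higher in endocardial cells by 2-fold or more, where 5.93% of all 2935 measured genes were, and 1 of 9 was at least 2-fold lower, where 4.16% were. Pdlim3 and Myh11 were above the floor on 1 array alone and could only have given a ratio in the direction they did, so these counts carry no support for a shift of the set. Of the 7 genes whose measured probe sets were all above the floor on both arrays, 1 (Myl9) was at least 2-fold higher and 0 were at least 2-fold lower, against 3.93% higher and 3.09% lower of the 2265 genes of that kind. The median log2 ratio was 0.32 over the 9 measured genes and -0.02 over all measured genes.

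**Figure D1:**
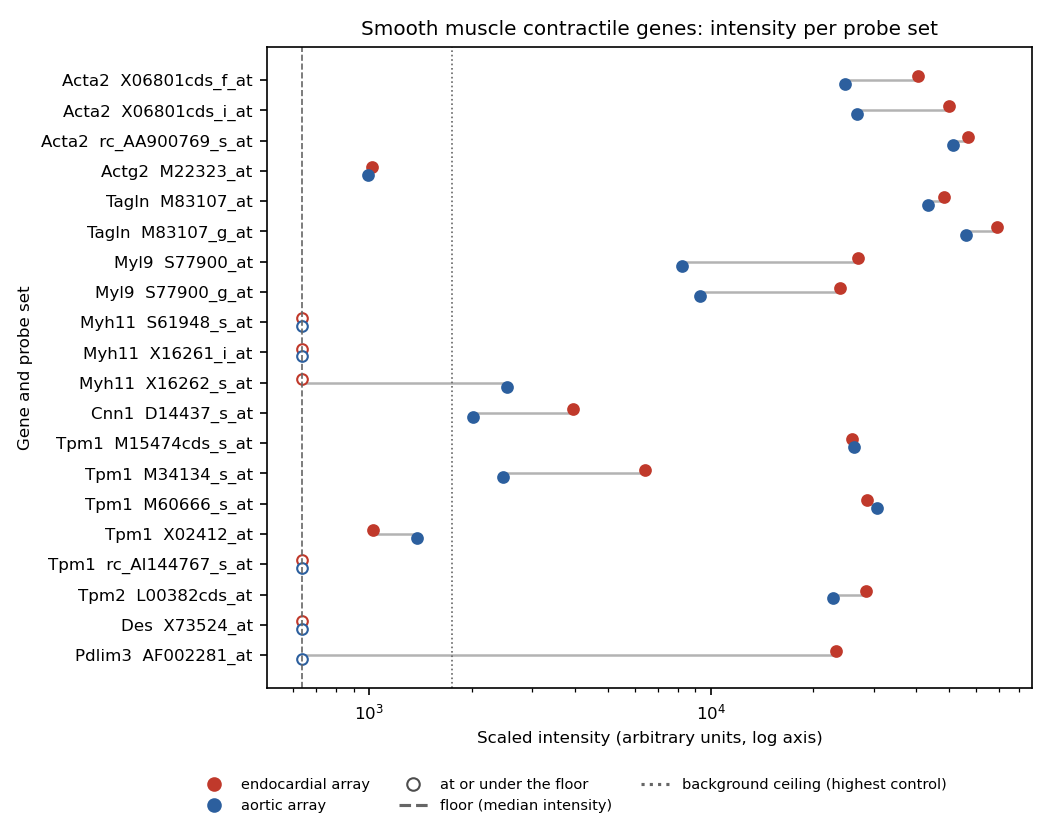
Scaled intensity (log axis, arbitrary units) of each of the 20 probe sets, with the endocardial array in red and the aortic array in blue. Open circles mark values at or under the floor of 635.4, drawn at the floor, and the dotted line marks the background ceiling (1742). Pdlim3 lies at 23283 on the endocardial array and under the floor on the aortic array, and both Myl9 probe sets lie further right on the endocardial array.

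Acta2, the alpha actin of smooth muscle, was read by 3 probe sets, all bright on both arrays. Probe set X06801cds_i_at had an intensity of 50039 on the endocardial and 26902 on the aortic array, a ratio of 1.86. Probe set X06801cds_f_at had 40501 on the endocardial and 24711 on the aortic array, a ratio of 1.64. The third, rc_AA900769_s_at, had 56642 on the endocardial and 51102 on the aortic array, a ratio of 1.11. All of them were higher in endocardial cells, but the third by much less, and the SD of the 3 log2 ratios was 0.39. Their ranks in brightness, counted from 1 for the brightest of 8740 probe sets, were 116, 167 and 79 on the endocardial array and 281, 312 and 124 on the aortic array, in the same order. Brightness depends on the oligonucleotides as well as the transcript, so ranks place a probe set on its array and do not order the genes by level. In Affymetrix naming, the f of X06801cds_f_at marks a set shared by a sequence family and the i an incomplete set. Actins are close in sequence, and how much other actins add to these signals was not tested. With both of these sets left out, an alternative added after the data were seen, the Acta2 log2 ratio was 0.15 in place of 0.71. The set that remains there, rc_AA900769_s_at, also carries a suffix, s. The value of 0.15 is therefore not from a probe set free of a suffix, and Acta2 had none.

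The 250 bases before the start of Acta2 are shown beside those of Cnn1 and Des because the CArG box is the element through which many of these genes are known to be switched on. The capitals mark every CCNNNNNNGG with at least 5 of its 6 middle letters A or T, a pattern that reads the same way on both strands, and the sequences are RefSeq's for build GRCr8.
Acta2, chr1:241172504-241172753, minus strand: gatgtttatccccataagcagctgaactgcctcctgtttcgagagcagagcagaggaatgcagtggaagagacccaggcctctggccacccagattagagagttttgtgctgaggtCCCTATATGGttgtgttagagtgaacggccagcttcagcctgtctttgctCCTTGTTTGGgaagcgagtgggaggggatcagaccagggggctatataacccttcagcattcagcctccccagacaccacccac
Cnn1, chr8:28908187-28908436, plus strand: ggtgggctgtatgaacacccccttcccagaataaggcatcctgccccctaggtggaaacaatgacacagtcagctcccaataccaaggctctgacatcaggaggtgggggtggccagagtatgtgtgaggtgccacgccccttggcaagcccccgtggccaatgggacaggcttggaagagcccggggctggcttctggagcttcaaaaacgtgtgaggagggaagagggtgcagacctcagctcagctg
Des, chr9:84299376-84299625, plus strand: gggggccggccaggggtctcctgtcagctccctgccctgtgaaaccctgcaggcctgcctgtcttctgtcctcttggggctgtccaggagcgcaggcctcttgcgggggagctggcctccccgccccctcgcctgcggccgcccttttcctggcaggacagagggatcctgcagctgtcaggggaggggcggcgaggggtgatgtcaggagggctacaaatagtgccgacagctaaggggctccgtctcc

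In the Acta2 window the element occurred 2 times, as CCCTATATGG from base -134 to -125 and as CCTTGTTTGG from base -84 to -75, counted back from the first base of the gene. Each had 5 of 6 middle letters A or T. Of all 33469 windows of this length in the table, 8.08% held at least 1 such element and 0.693% held 2 or more. The strict form, with all 6 middle letters A or T, was in 501 of all windows and in 0 of the member windows. The table held 6 of the 10 genes, and Acta2 was the 1 with a match. The windows of Actg2, Tpm1 and Tpm2 lay inside the RefSeq gene rather than at its start, so they are not shown. A match is a description of the sequence and not a site that was tested.

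Actg2, the gamma actin of intestinal and vascular smooth muscle, was dim. Its probe set M22323_at had 1019 on the endocardial and 989 on the aortic array, at rank 3669 of the endocardial and 3690 of the aortic array. Both values were under the background ceiling, so the ratio of 1.03 does not show that the levels were alike.

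Tagln, which encodes transgelin, an actin-bundling protein and an early marker of smooth muscle differentiation, had the brightest probe set of the group. M83107_g_at stood at 69088 on the endocardial array, rank 27, and at 55933 on the aortic array, rank 104. M83107_at, which reads the same sequence, stood at 48395 on the endocardial array, rank 123, and at 43234 on the aortic array, rank 173. The ratios were 1.24 and 1.12, with log2 ratios of 0.30 and 0.16, so Tagln was a little higher in endocardial cells in both. Among probe sets of the same gene across the array the log2 ratios had an SD of 0.39 (625 genes with 1432 probe sets, above the floor on each array), and of 0.34 for the brighter part, and both Tagln values were inside that SD.

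Myl9, the regulatory light chain whose phosphorylation switches on smooth muscle myosin, differed most among the genes bright on both arrays. Probe set S77900_at had 26984 on the endocardial and 8259 on the aortic array, a ratio of 3.27. Probe set S77900_g_at, for the same sequence, had 23927 on the endocardial and 9308 on the aortic array, a ratio of 2.57. Both sets were high on the endocardial array, and all 4 values were far above the background ceiling. Their ranks were 274 and 307 on the endocardial array and 887 and 801 on the aortic array. By ratio they stood 100th and 180th from the highest of the 4808 measured probe sets. The gene's log2 ratio of 1.54 exceeded the SD among probe sets of the same gene, which holds no variation between cultures or arrays. It lay between 1.54 and 1.71 under all 11 alternatives of processing. The changes of floor among these could not move it, because all 4 values were above every floor used. Both probe sets come from 1 sequence and so are not independent of each other.

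Myh11, the heavy chain of smooth muscle myosin and a marker of mature smooth muscle, was close to background. Probe set X16262_s_at had 614 on the endocardial array, under the floor, and 2533 on the aortic array. S61948_s_at had 291 on the endocardial and 496 on the aortic array. X16261_i_at was below 0 on both, at -330 on the endocardial and -741 on the aortic array. On the endocardial array these sets ranked 4433, 5349 and 7826, and on the aortic array 2194, 4724 and 8004, taken in the order given. The lower value on the endocardial array rests on the first of these alone, the others being under the floor on both arrays. With the background ceiling as the floor the bound fell to at least 1.45-fold lower, which no longer passed 2-fold.

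Cnn1, which encodes calponin, a filament-binding inhibitor of myosin activity, had 3953 on the endocardial and 2013 on the aortic array in its 1 probe set, D14437_s_at. It ranked 1614 on the endocardial and 2547 on the aortic array, and its ratio of 1.96 lay just under the 2-fold line. The aortic value was near the background ceiling of 1742. After centring of the ratios on their median the log2 ratio was 1.015, past the line, and it was 0.62 with the 75th percentile as the floor.

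Tropomyosins, the coiled-coil proteins along the actin filament, are made from few genes in many spliced forms, and the probe sets of Tpm1 went apart. M34134_s_at had 6416 on the endocardial and 2467 on the aortic array, a ratio of 2.60. M60666_s_at had 28780 on the endocardial and 30647 on the aortic array, a ratio of 0.94, and M15474cds_s_at had 25920 on the endocardial and 26350 on the aortic array, a ratio of 0.98. X02412_at had 1025 on the endocardial and 1382 on the aortic array, both under the background ceiling, and rc_AI144767_s_at had 584 on the endocardial and 85.2 on the aortic array, both under the floor. The 2 brightest sets thus differed by under 10% between the arrays while 1 set of middle brightness was 2.60-fold higher in endocardial cells. The 4 measured log2 ratios had an SD of 0.80, against 0.39 for probe sets of the same gene in general, and the gene's value of -0.06 does not describe its probe sets. Which spliced forms each set reads is not stated in the sources used here. Tpm1 ranks were 249 on the endocardial and 254 on the aortic array for M60666_s_at, 281 on the endocardial and 291 on the aortic array for M15474cds_s_at, and 1085 on the endocardial and 2225 on the aortic array for M34134_s_at. The dim X02412_at ranked 3664 on the endocardial and 3134 on the aortic array, and rc_AI144767_s_at ranked 4514 on the endocardial and 6105 on the aortic array. Tpm2, which encodes the beta tropomyosin of muscle, had 28518 on the endocardial and 22886 on the aortic array in L00382cds_at, at rank 254 of the endocardial and 329 of the aortic array, a ratio of 1.25.

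**Figure D2:**
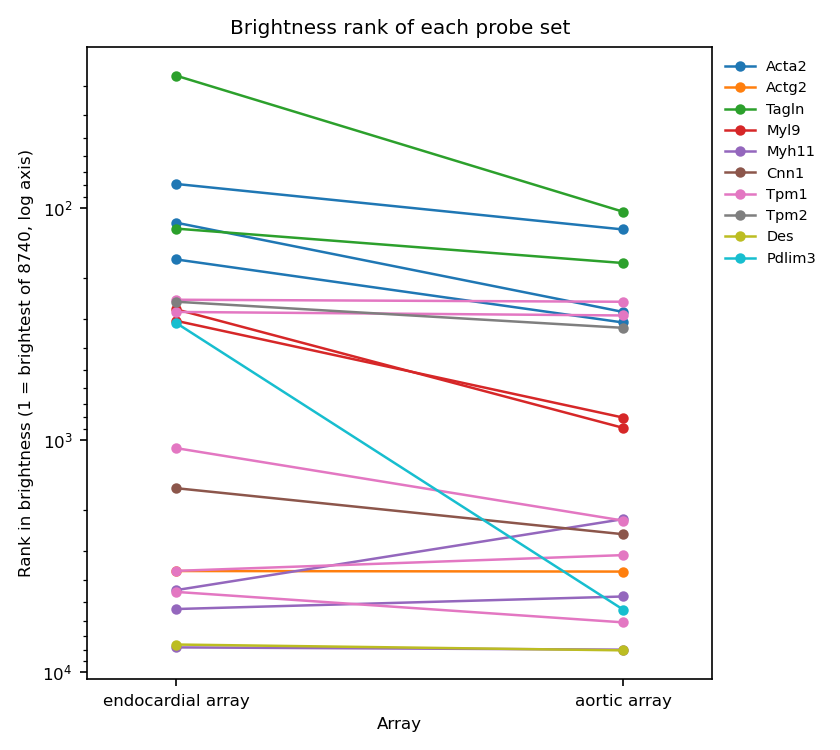
Rank in brightness of each of the 20 probe sets (1 is the brightest of 8740, log axis) on the endocardial array at left and the aortic array at right, with a line per probe set and a colour per gene. The Pdlim3 line stands at rank 314 on the endocardial and 5375 on the aortic array, and the Myl9 lines at 274 and 307 on the endocardial and 887 and 801 on the aortic array, while the lines of Actg2 and of both bright Tpm1 sets are nearly level.

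Des, the intermediate filament protein that links the contractile units of muscle cells, was not above background. Its probe set X73524_at was below 0 on both arrays, at -239 on the endocardial and -819 on the aortic array, with rank 7607 on the endocardial and 8059 on the aortic array, and no ratio can be given.

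Pdlim3, also called ALP, carries a PDZ and a LIM domain and binds alpha-actinin, the protein that anchors actin filaments in muscle. Its 1 probe set, AF002281_at, had 23283 on the endocardial array, at rank 314, and 284 on the aortic array, at rank 5375, under the floor. With values under the floor set to it, the ratio was the second highest of the 4808 measured probe sets. Against the floor it was at least 36.6-fold higher in endocardial cells, and against the background ceiling at least 13.4-fold. No other probe set was annotated to Pdlim3 alone, so the difference has no check within the array.

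**Figure D3:**
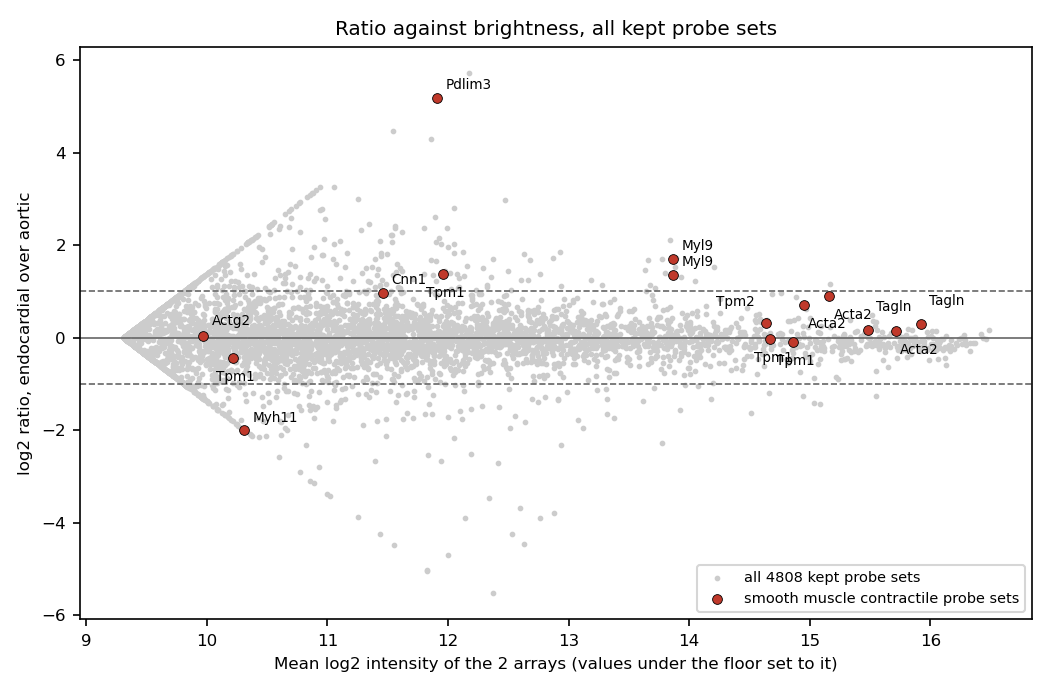
The log2 ratio of the endocardial over the aortic array (vertical axis) against the mean log2 intensity of both arrays (horizontal axis) for the 4808 measured probe sets in grey, with the 16 measured smooth muscle contractile probe sets in red and labelled. Dashed lines mark a 2-fold difference. Pdlim3 is near the top of the plot, both Myl9 points are above the upper line, and Tagln and the bright Tpm1 sets lie close to 0.

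Counted by probe set, 4 of the 16 measured ones (Pdlim3, both of Myl9 and M34134_s_at of Tpm1) were at least 2-fold higher in endocardial cells, where 6.61% of all 4808 were, and 1 (of Myh11) was at least 2-fold lower, where 4.83% were. The Pdlim3 and Myh11 sets were above the floor on 1 array alone, so their direction was fixed. Of the 14 above the floor on both arrays, 3 were higher and 0 lower, against 4.83% higher and 3.87% lower of the 3932 of that kind. Both Myl9 sets, which come from 1 sequence, were among the 3. With the background ceiling as the floor, 2 of 8 measured genes (Pdlim3 and Myl9) were at least 2-fold higher and 0 lower, where 3.99% and 2.36% of 1904 genes were. Pdlim3 exceeded that ceiling on the endocardial array alone and Myh11 on the aortic array alone, so their direction was again fixed. Ratios vary less among bright probe sets, so a narrower line was drawn for them after the data had been seen. Of 325 probe sets brighter than 20000 on both arrays, 1.54% were at least 1.5-fold higher in endocardial cells and 3.69% at least 1.5-fold lower. Of the 8 smooth muscle contractile probe sets among them, 2 were that much higher, 0 were that much lower, and 6 were within 1.5-fold. The 2 were the Acta2 sets with the f and i suffixes, which come from 1 sequence and so are not independent of each other. The third Acta2 set, at a ratio of 1.11, was among the 6.

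By brightness, 11 of the 20 probe sets were in the top 5% of the endocardial array and 8 in the top 5% of the aortic array. These were sets of Acta2, Tagln, Tpm1 and Tpm2 on both arrays, joined by Myl9 and Pdlim3 on the endocardial array. For each gene above the floor on both arrays, the probe set of another gene nearest to its brightest one was found by distance in the log2 intensities of the 2 arrays. It was one of Rack1 for Acta2 (distance 0.07), of COX3 for Tagln (0.17), of Calr for Tpm2 (0.05) and of Oaz1 for Tpm1 (0.05). For Myl9 it was one of Cyp1b1 (27557 on the endocardial and 8392 on the aortic array, distance 0.04), for Cnn1 one of Scamp2 (0.07) and for Actg2 one of Tcf3 (0.03).

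Other genes of the contractile machinery were read from a list of regulators and anchors of contraction. Of its 26 measured genes, 3 reached a 2-fold higher value in endocardial cells and 0 a 2-fold lower one, with a median log2 ratio of 0.17. Over all 2935 measured genes, 5.93% were that much higher and 4.16% that much lower. With the background ceiling as the floor the shares were 3.99% and 2.36% of 1904 genes. Counts in this list and those that follow are to be read beside these shares. The collagen receptor subunit Itga1 had 11220 on the endocardial and 4327 on the aortic array, a 2.59-fold difference. The integrin subunit Itga8 had 1858 on the endocardial and 804 on the aortic array, the second value under the background ceiling, and the guanylate cyclase subunit Gucy1b1, a receptor for nitric oxide, was at least 3.85-fold higher against the floor, with an aortic value of 165. With the background ceiling as the floor 1 of 20 measured genes, Itga1, passed 2-fold upward and 0 passed it downward. The brightest over both arrays together were the intermediate filament gene Vim, with 66372 on the endocardial and 76538 on the aortic array, and the integrin subunit Itgb1, with 40927 on the endocardial and 22323 on the aortic array.

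Regulators of smooth muscle gene transcription lay the other way in their median. Of 10 measured ones, 0 reached 2-fold upward and 1 reached it downward, with a median of -0.30. Klf4, which represses smooth muscle genes, had 4599 on the endocardial and 16750 on the aortic array, a 3.64-fold lower value on the endocardial array. The homeobox gene Prrx1 had 6271 on the endocardial and 9287 on the aortic array. Of the partners that act on the CArG box, Srf and Myocd had no probe set with that symbol alone.

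Striated muscle contractile genes were mostly dim. Of 33 on the array 17 were under the floor on both arrays, among them the skeletal actin Acta1 and the cardiac actin Actc1. The other 16 were measured, where 2935 of all 4736 named genes were, and 5 exceeded the background ceiling on both arrays. Of the 16 measured, 0 were higher and 1 was lower, the cardiac myosin heavy chain Myh6 (at least 2.50-fold against the floor, with 569 on the endocardial and 1589 on the aortic array, both under the background ceiling), and the median was 0.08. The chaperone Cryab, which is not confined to muscle, had 43456 on the endocardial and 40854 on the aortic array, and the LIM protein Pdlim5 had 9824 on the endocardial and 8759 on the aortic array.

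Non-muscle relatives of the 10 genes had a median of 0.05 over 8 measured genes, with 2 higher and 0 lower. With the background ceiling as the floor the median was -0.10, and 1 of 7 was higher and 0 lower. The higher ones were both PDZ and LIM proteins of the family of Pdlim3: Pdlim1 had 14719 on the endocardial and 6680 on the aortic array, a 2.20-fold difference, and Pdlim2 was at least 2.06-fold higher against the floor, with 1310 on the endocardial and -457 on the aortic array, so its endocardial value was under the background ceiling. Pdlim4 was under the floor on both. Pdlim5, of the same family and given above with the striated muscle genes, was 1.15-fold higher in endocardial cells. The cytoplasmic actins were bright on both arrays, Actb with 79518 on the endocardial and 85512 on the aortic array and Actg1 with 69218 on the endocardial and 78328 on the aortic array.

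**Figure D4:**
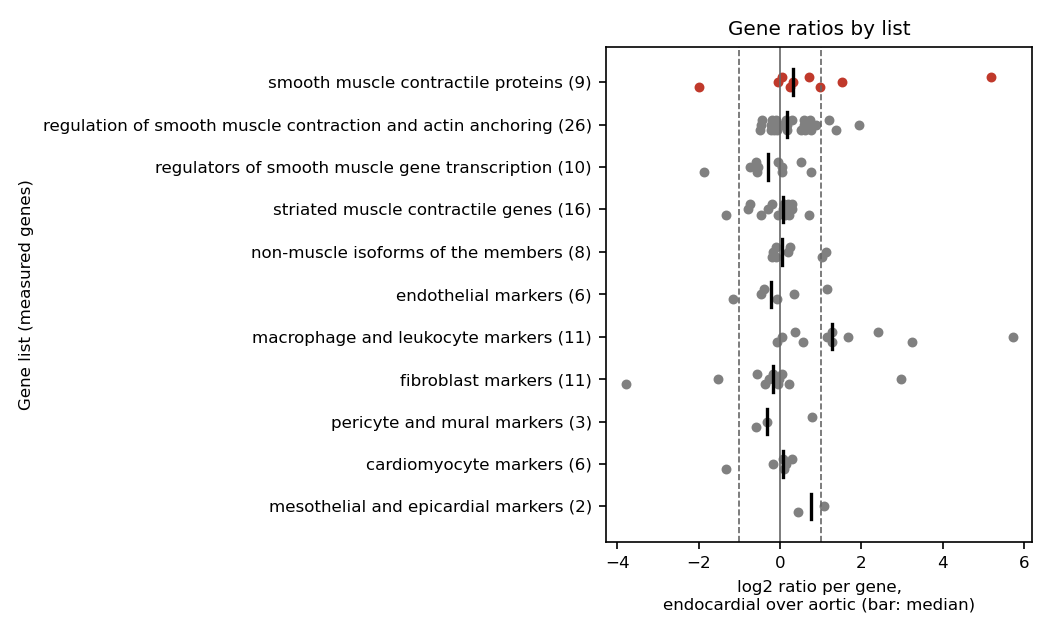
The log2 ratio of the endocardial over the aortic array for each measured gene (points) of the smooth muscle contractile set, in red, and of the comparison and cell type marker lists, in grey, with a black bar at each median. The number of measured genes is in brackets and the dashed lines mark a 2-fold difference. The contractile set has a median of 0.32, with Pdlim3 at 5.195 and Myh11 at -2.00 as its ends, both bounds.

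The label of the cells was set against markers. Of 13 endothelial markers on the array 6 were measured, where 2935 of all 4736 named genes were. Of these markers 1 (Thbd) was above the background ceiling on both arrays. The defining markers Pecam1, Vwf and Kdr did not reach the floor on either array, with highest values of 313, 302 and -29.3 on the endocardial and 393, -69 and -195 on the aortic array. The highest Nos3 values, 1728 on the endocardial and 1832 on the aortic array, were close to that ceiling. The angiotensin-converting enzyme Ace was 2.23-fold lower in endocardial cells (1028 on the endocardial and 2297 on the aortic array). The transcription factor Ets1 was at least 2.22-fold higher against the floor, by the median log2 ratio of its 2 measured probe sets. The median intensities of these sets, 1720 on the endocardial and 680 on the aortic array, do not themselves give that fold. The endocardial value of Ace and both Ets1 medians were under the background ceiling, though at least 1 Ets1 probe set exceeded it on an array. With that ceiling as the floor the folds of Ace and Ets1 were 1.32 and 1.33, so that neither call was kept. That the cells were endothelial therefore rests on the labels.

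Markers of other cell types that make or lack these proteins moved as follows, and their part in the results above was not tested. Over all 2935 measured genes, 5.93% were at least 2-fold higher in endocardial cells and 4.16% at least 2-fold lower. With the background ceiling as the floor these shares were 3.99% and 2.36%. Of 11 measured fibroblast markers, 1 was at least 2-fold higher in endocardial cells (Postn, with 15940 on the endocardial and 2026 on the aortic array) and 2 were lower (Dcn, at least 13.9-fold, and Lox, 2.89-fold), with summed intensities of 322810 on the endocardial and 379223 on the aortic array. In this and the later sums, gene values under the floor were set to it. The collagen gene Col1a1 had 68163 on the endocardial and 74687 on the aortic array. Above the background ceiling on both arrays were 10 of the 11 fibroblast and 2 of the 11 macrophage and leukocyte markers. The same held for 0 of 3 pericyte, 1 of 6 cardiomyocyte and 0 of 2 mesothelial and epicardial markers measured. Of 11 measured macrophage and leukocyte markers 7 were higher, each with an aortic value under the floor, and 0 lower, with sums of 59144 on the endocardial and 12255 on the aortic array. With the background ceiling as the floor 2 of 8 were higher. Lyz2 had 33620 on the endocardial and 288 on the aortic array, while no probe set of the pan-leukocyte gene Ptprc exceeded the background ceiling. Mmp12 was at least 9.58-fold and Ctss at least 5.31-fold higher against the floor. Of the pericyte markers, 3 were measured and 0 passed 2-fold, with sums of 3297 on the endocardial and 3995 on the aortic array. Cspg4 was under the floor on both arrays, and Pdgfrb had 104 on the endocardial and 950 on the aortic array. Of 6 measured cardiomyocyte markers 1 (Myh6) was lower and 0 were higher, with sums of 6415 on the endocardial and 6985 on the aortic array, and Tnnt2 had 1071 on the endocardial and 866 on the aortic array. Of 2 measured mesothelial and epicardial markers 1, Wt1, was higher, with 1933 on the endocardial and 908 on the aortic array, the second value under the background ceiling, and the sums were 2798 on the endocardial and 1543 on the aortic array.

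**Figure D5:**
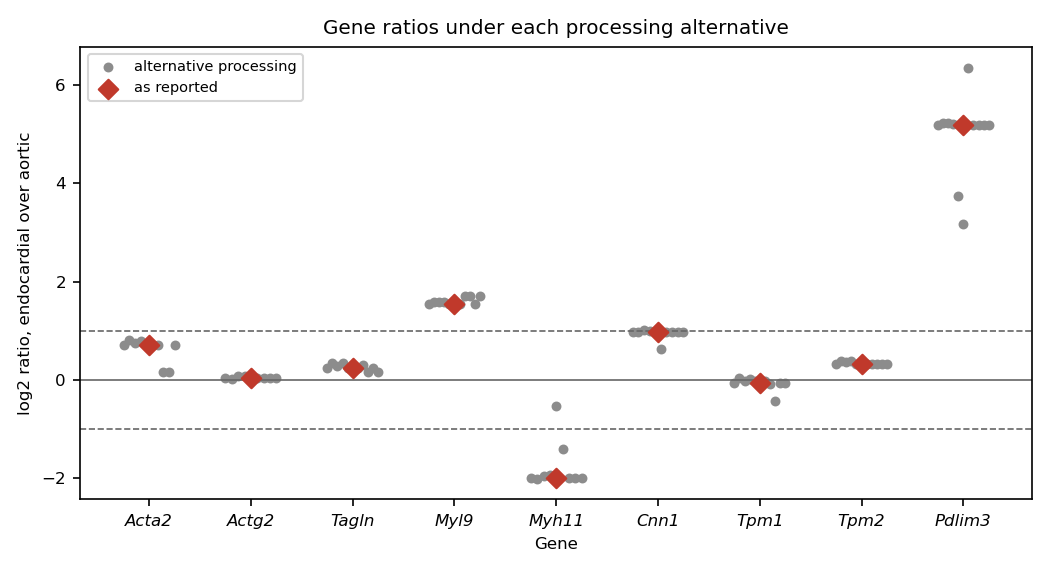
The log2 ratio of the endocardial over the aortic array for each of the 9 measured genes as reported (red diamonds) and under each alternative of processing (grey points). Dashed lines mark a 2-fold difference. The grey points of Myl9 stay above the upper line, those of Pdlim3 range from 3.18 to 6.36, those of Myh11 from -2.01 to -0.54, and those of Acta2 fall to 0.15 without its f and i probe sets.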

How the data were processed

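Total RNA of 1 endocardial and 1 aortic culture was hybridised to Affymetrix rat U34A arrays, per the labels. The authors deposited 1 intensity per probe set and array on a linear scale, and the summarising software is not stated in the sources used here. Of the endocardial values 24.3% and of the aortic values 25.8% were 0 or less. Without the 59 control probe sets, the arrays were scaled to the same 2% trimmed mean (factors 0.999 for the endocardial and 1.00 for the aortic array). Of 8740 probe sets, 7006 had exactly 1 gene symbol in the platform annotation, 308 several and 1426 none. RefSeq's GRCr8 gene table held 6985 of the 7006, with 0 symbols changed.

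A gene's value was the median log2 ratio of its measured probe sets, counted at 2-fold. An intensity given for a list or marker gene was the median over its measured probe sets, unless called its highest. The sums for marker lists added these medians, with those under the floor set to it. Marker genes, list members past 2-fold, the brightest 2 of each list and nearest probe sets were named by rule. Ace, Ets1 and Wt1 came under the marker rule; Thbd, Pdlim4, Acta1, Actc1, Srf and Myocd were named after their values were seen. The members and lists were chosen with earlier results of these data known.

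Simulated data of known ratios were used to check the gene medians above the median floor. The bounds, the scaling, the centring and the normalization to equal distributions were checked only for the property that each gives by construction. The normalization by brightness was checked on a simulated array with a tilt in brightness. Ranks, nearest probe sets, the SD among probe sets, the brightest and plain probe set values and the element search were not tested in this way. Alternatives changed the scaling, centring, floor (among them the 75th percentile) or probe sets. Python 3.11.15, pandas 2.3.3 and statsmodels 0.14.6 were used. The number of arrays limits the precision.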

Additional observations from a re-analysis of the deposited data

Results flagged for a closer look

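A bright probe set outside the 20 was annotated to both Acta2 and the cardiac actin gene Actc1 and so was left out of all gene values and of the contractile set. It stayed in the ranks and in the counts over all probe sets. X80130cds_f_at had an intensity of 15306 on the endocardial and 16623 on the aortic array, a log2 ratio of -0.12, and exceeded the background ceiling, the highest background control (1742), on each array. The 1 probe set of Actc1 alone was below 0 on both arrays, at -135 on the endocardial and -199 on the aortic array. The other 3 probe sets annotated to the same pair of genes did not exceed that ceiling on either array.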

How the results depend on the processing

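Raising the floor ended the lower call of Myh11: with the background ceiling or the 75th percentile as the floor, 0 genes and 0 probe sets of the set were at least 2-fold lower, in place of 1. The counts over all genes moved with the floor too, to 76 higher and 45 lower at that ceiling, 45 and 40 at the 75th percentile, and 342 and 410 with no floor, against 174 and 122. Plain probe sets are those with no suffix letter before the final at, and Acta2, Cnn1 and Myh11 had none. With plain probe sets alone, 2 of the set's probe sets were higher in place of 4, and 0 probe sets and 0 genes lower. That choice and the higher floors leave fewer probe sets by construction. The median brightness rank of the 20 probe sets, 3.55% from the top on the endocardial array, became 2.78% when ranked among probe sets with 1 symbol. On the aortic array it was 17.6% and became 17.7%. That aortic median of 17.6% fell in a gap between 10.1% (S77900_at of Myl9) and 25.1% (X16262_s_at of Myh11), with no probe set near it. Of 93 gene ratios under alternatives, 86 moved by less than 0.39, 7 moved by more and 0 called ratios changed sign; the 7 were of Pdlim3, Myh11 and Acta2, and Acta2 fell to a log2 ratio of 0.15 with its brightest probe set. Tpm1, not called, ran from -0.43 with plain probe sets to 0.03. The lists gave 324 values, of which 36 moved. Of the 10 list medians, 1 changed sign, that of the non-muscle relatives, at 0.05 as reported and -0.10 with the background ceiling or the 75th percentile as the floor. The 2 alternatives that left out probe sets by suffix were chosen after seeing the data. No paired analysis was possible because each group had 1 array. Values under the background ceiling (1742) give no reliable ratio.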

Other observations

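The Tpm1 probe set M34134_s_at, with a log2 ratio of 1.38, stood closer to Myl9 (1.54) and Cnn1 (0.97) than to the other 2 Tpm1 probe sets above the background ceiling on both arrays (-0.02 and -0.09). The values are given without an explanation.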
